A study of Mus musculus with 16 samples.

Results

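Tuft cell genes were followed here through sorted cells of the mouse small intestine. The set was fixed by name as Dclk1, Rgs13, Trpm5, Pou2f3, Gnat3, Plcg2, Sh2d6 and Avil. Of these 8 genes, 7 had a row in the deposited expression table of 20072 genes; Gnat3, the G protein alpha subunit of taste cells called gustducin, had none and was not analysed here. Untreated Tph1-CFP mice, 8 to 16 weeks old, carry a cyan fluorescent protein (CFP) reporter for Tph1, which encodes the enzyme that starts serotonin synthesis in enterochromaffin (EC) cells, an endocrine cell type of the intestinal lining. Crypt and villus epithelium were collected separately from the small intestine, dissociated and sorted by fluorescence into CFP-positive EC cells and CFP-negative epithelial cells (epi). The 4 groups (EC and epi, each from crypt and villus) have 4 libraries each, with 5000 pooled cells per library. All mice carried the reporter, and the CFP-negative groups hold every other epithelial cell of their fraction, so tuft cells are a minority of them.

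Tuft cells are solitary chemosensory cells with a dense apical brush of microvilli. They need the transcription factor POU2F3, sense luminal metabolites and parasites through a taste-like pathway that ends in the opening of the cation channel TRPM5, and release interleukin 25, cysteinyl leukotrienes and acetylcholine, through which they start type 2 immune responses in the intestine. In a pooled library, fewer tuft cells and less RNA per tuft cell cannot be told apart.

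Of 7 enteroendocrine markers, 6 were called higher in crypt EC than in crypt epi and all 7 in the villus contrast; the exception, Scg2, named after its values were seen, averaged 8.02 FPKM in crypt EC and 16.1 in crypt epi and was not called. Summed over these markers, crypt EC libraries held 53426 to 58006 FPKM (the authors' unit, a fragment count divided by transcript length and library size) against 67.0 to 117 in crypt epi, and villus EC libraries held 49752 to 59625 against 237 to 367 in villus epi. Column totals ran from 731415 to 1415123 FPKM, and 11318 to 13071 genes reached 1 FPKM in a library. The number of reads is not given. The value of 1 read was estimated as the most common ratio of low values between a library and crypt EC library 1. This assumes that the most common ratio sets 1 read against 1 read. The ratio was 1.51 to 2.75 in villus epi, 1.20 to 1.29 in villus EC, 1.05 to 1.17 in crypt epi and 0.979 to 1.10 in crypt EC. By this estimate low values were coarsest in villus epi. The 2.75 was villus epi library 2, where the most common ratio stood out least within the group. Villus epi library 2 stood apart from the rest: its mean correlation with its own group over the 14089 genes tested was 0.812, against 0.923 to 0.926 for the other villus epi libraries and 0.971 to 0.985 in the other groups. Its level of Ptprc, the pan-leukocyte antigen CD45, was 24.6 FPKM, against 1.06 to 1.69 in the other villus epi libraries. In crypt epi, library 3 had a summed enterocyte marker level of 2117 FPKM, against 6881 to 7250 in the other 3. Changes in the calls of the tuft genes without these libraries are given below. Group means, marker sums, other gene lists and correlations are given with all libraries only.

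The genes lie on 7 different chromosomes of the mm10 assembly. By the GENCODE M21 annotation, Dclk1 (ENSMUSG00000027797) spans 55242364 to 55539068 on the plus strand of chromosome 3, Rgs13 (ENSMUSG00000051079) 144138654 to 144177372 on the minus strand of chromosome 1, and Sh2d6 (ENSMUSG00000052631) 72513641 to 72521707 on the minus strand of chromosome 6. Pou2f3 (ENSMUSG00000032015) spans 43123939 to 43210369 on the minus strand of chromosome 9, and Plcg2 (ENSMUSG00000034330) 117498291 to 117635142 on the plus strand of chromosome 8. Trpm5 (ENSMUSG00000009246) spans 143069153 to 143094642 on the minus strand of chromosome 7 and shares 220 of its 6398 exon bases with Tssc4 on the other strand. Avil (ENSMUSG00000025432) spans 127000709 to 127020994 on the plus strand of chromosome 10 and shares 165 of its 3398 exon bases with Tsfm on the other strand. The library kit as described does not mark strand, so reads from these shared bases cannot be told apart. Tssc4 averaged 51.0 FPKM in crypt epi, 23.8 in villus epi, 57.7 in crypt EC and 53.4 in villus EC, and Tsfm 67.0, 9.00, 34.8 and 19.6 in the same order, each above the Trpm5 or Avil mean of its group.

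Promoter sequence was examined because POU2F3 belongs to the POU family, whose members bind the octamer ATGCAAAT. RefSeq promoters (GRCm38.p6, 250 bases before and 50 after a gene start) were matched by symbol for 7 of the 8 genes, giving 8 promoters; Pou2f3 was the gene not matched. The full octamer, searched on both strands, was in 0 of these 8 promoters and in 1.74% of all 32851 promoters of the same length. Its first 7 bases, ATGCAAA, which every full octamer also holds, were in 4.63% of all promoters and, among the tuft genes, in Avil alone, where matches start 115 bases before the gene start on the minus strand and 15 bases before it on the plus strand. The 250 bases before the start are shown for Rgs13 (chr1:144177373-144177622, minus strand) and Sh2d6 (chr6:72520037-72520286, minus strand), the pair with the largest differences between EC and other epithelial cells below, and for Avil (chr10:127000459-127000708, plus strand), which was not called in either of those comparisons. Each reads 5′ to 3′ toward the gene, with the 7-base match, on either strand, in capitals.
Rgs13: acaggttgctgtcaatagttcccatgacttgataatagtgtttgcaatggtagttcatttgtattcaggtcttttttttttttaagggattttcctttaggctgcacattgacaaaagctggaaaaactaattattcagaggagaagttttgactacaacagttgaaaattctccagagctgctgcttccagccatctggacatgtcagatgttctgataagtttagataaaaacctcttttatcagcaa
Sh2d6: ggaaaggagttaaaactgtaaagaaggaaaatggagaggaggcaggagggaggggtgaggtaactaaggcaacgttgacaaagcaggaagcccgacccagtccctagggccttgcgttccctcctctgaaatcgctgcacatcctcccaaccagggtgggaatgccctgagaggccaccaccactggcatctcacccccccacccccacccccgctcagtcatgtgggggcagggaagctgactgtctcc
Avil: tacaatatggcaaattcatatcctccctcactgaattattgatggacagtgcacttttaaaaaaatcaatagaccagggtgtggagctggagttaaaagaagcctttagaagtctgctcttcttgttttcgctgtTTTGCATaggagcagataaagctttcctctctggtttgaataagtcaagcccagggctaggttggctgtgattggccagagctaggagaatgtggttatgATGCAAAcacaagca
A match is a description of the letters and not evidence of binding, and other windows were not searched.

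Across the 4 groups the 7 genes fell into 2 patterns, drawn in the plot of each gene by library. Dclk1, Rgs13, Sh2d6 and Pou2f3 were between 0 and 4.53 FPKM in every EC library and between 0.263 and 57.8 in the other epithelial cells. The 0.263 was Pou2f3, which reached at most 2.04, and the 57.8 was Sh2d6 in villus epi library 2. Trpm5, Plcg2 and Avil were between 1.54 and 6.81 FPKM in every EC library and between 0.623 and 11.4 in the others. Trpm5 shares 220 of its 6398 exon bases with Tssc4, and Avil 165 of its 3398 with Tsfm. The part of Tssc4 and Tsfm reads in the Trpm5 and Avil values was not tested.

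**Figure D1:**
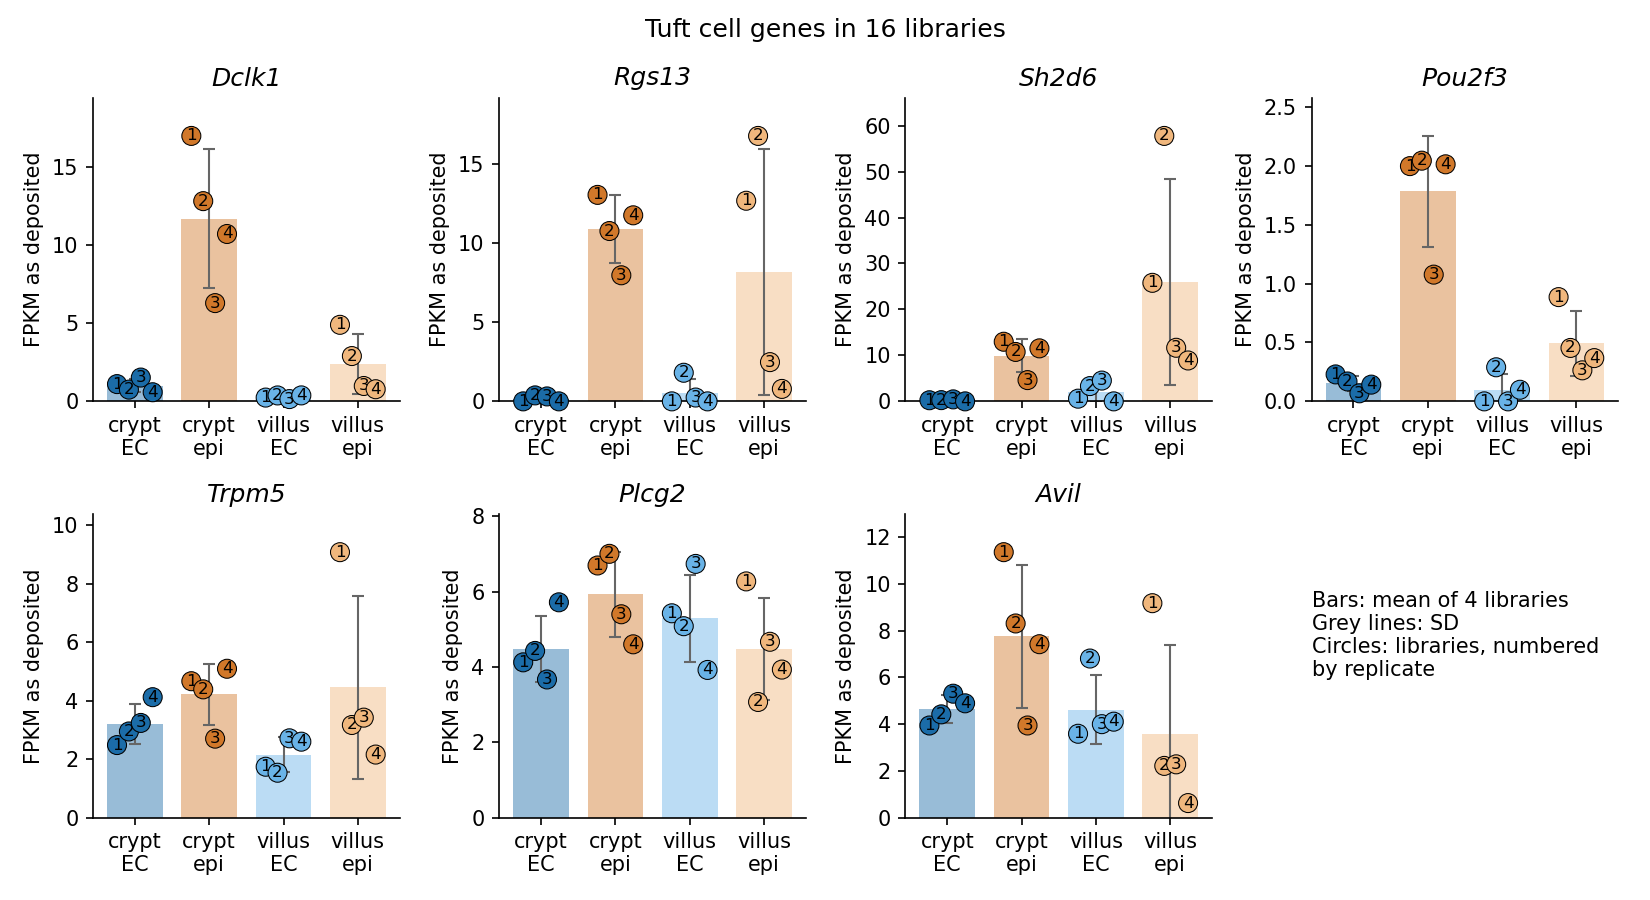
Level of each tuft cell gene (FPKM as deposited, linear axis from 0, a separate scale for each gene) in the 16 libraries. Bars are means of 4 libraries, grey lines SD and numbered circles the libraries. Dclk1, Rgs13, Sh2d6 and Pou2f3 are lower on average in both EC groups than in the epi group of the same site. Trpm5, Plcg2 and Avil have values above 0 in all 4 groups. The part of Tssc4 reads in the Trpm5 values and of Tsfm reads in the Avil values was not tested.

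Pou2f3, the regulator of tuft cell identity, had the lowest mean of the 7 genes in every group, on this scale that divides by transcript length. In crypt epi its 4 libraries read 2.00, 2.04, 1.08 and 2.01 FPKM, and in crypt EC 0.229, 0.169, 0.0684 and 0.142. In villus epi they read 0.885, 0.453, 0.263 and 0.367, and in villus EC 0, 0.289, 0 and 0.0984. Every crypt epi library was above every other library of the study, and villus EC library 2 lay above the lowest villus epi library. The group means were 1.78 ± 0.471 in crypt epi, 0.492 ± 0.273 in villus epi, 0.152 ± 0.0665 in crypt EC and 0.0969 ± 0.136 in villus EC (SD, n = 4). The means of the 2 EC groups, neighbours in this order, differed by less than their spread.

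Dclk1, a microtubule-associated kinase used to mark tuft cells, followed the same order. It read 17.0, 12.8, 6.28 and 10.7 FPKM in crypt epi, 4.89, 2.90, 0.982 and 0.776 in villus epi, 1.10, 0.751, 1.52 and 0.583 in crypt EC and 0.242, 0.378, 0.146 and 0.381 in villus EC. The crypt epi libraries were all above those of every other group, and the villus EC libraries all below. Villus epi libraries 3 and 4 lay within the range of crypt EC. Means were 11.7 ± 4.44, 2.39 ± 1.92, 0.990 ± 0.416 and 0.287 ± 0.114 (SD, n = 4) in that order. In crypt epi Dclk1 had the highest mean FPKM of the 7 genes, and in villus epi it was sixth.

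Rgs13 encodes a regulator that shuts off G protein signals. Its libraries read 13.0, 10.8, 7.96 and 11.8 FPKM in crypt epi and 12.7, 16.8, 2.48 and 0.786 in villus epi. In EC cells it read 0, 0.377, 0.312 and 0 in the crypt and 0, 1.81, 0.242 and 0 in the villus. The 4 villus epi libraries therefore split, with libraries 1 and 2 at or above most crypt epi libraries and library 4 below 1 villus EC library. The means of crypt epi, 10.9 ± 2.16, and villus epi, 8.18 ± 7.77 (SD, n = 4), differed by less than the villus epi SD, as did those of villus EC, 0.513 ± 0.871, and crypt EC, 0.172 ± 0.201.

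Sh2d6, a gene for an SH2-domain adaptor protein, had the highest group mean of any of the 7 genes, in villus epi. It read 25.8, 57.8, 11.7 and 8.90 FPKM in villus epi and 13.0, 10.8, 4.63 and 11.5 in crypt epi. In villus EC it read 0.587, 3.33, 4.53 and 0, and in crypt EC 0.244, 0.268, 0.432 and 0. Both epi groups lay above both EC groups in every library, while the 2 epi groups overlapped. Means were 26.0 ± 22.4, 9.97 ± 3.68, 2.11 ± 2.17 and 0.236 ± 0.178 (SD, n = 4), and the villus epi mean leans on library 2, which stands apart.

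Trpm5, the channel at the end of the taste-like pathway, was above 1 FPKM in every library. It read 4.67, 4.39, 2.70 and 5.09 FPKM in crypt epi, 2.48, 2.95, 3.24 and 4.12 in crypt EC, 1.74, 1.54, 2.71 and 2.60 in villus EC and 9.08, 3.17, 3.42 and 2.16 in villus epi. Ordered by their means, all neighbouring groups overlapped, and villus epi library 1 was above all other libraries. Means were 4.46 ± 3.13 in villus epi, 4.21 ± 1.05 in crypt epi, 3.20 ± 0.690 in crypt EC and 2.15 ± 0.595 in villus EC (SD, n = 4).

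Plcg2 encodes a phospholipase C that releases calcium from stores downstream of receptors and tyrosine kinases. It read 6.69, 7.0, 5.40 and 4.60 FPKM in crypt epi, 5.42, 5.08, 6.74 and 3.92 in villus EC, 6.27, 3.07, 4.67 and 3.93 in villus epi and 4.12, 4.43, 3.67 and 5.72 in crypt EC. Every pair of groups overlapped, and the means, 5.92 ± 1.12, 5.29 ± 1.16, 4.48 ± 1.36 and 4.48 ± 0.879 (SD, n = 4), were the closest together of any member. In villus EC Plcg2 had the highest mean FPKM of the 7 genes.

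Avil encodes advillin, an actin-binding protein of the microvillar core. It read 11.4, 8.31, 3.94 and 7.43 FPKM in crypt epi and 9.18, 2.21, 2.28 and 0.623 in villus epi. In EC cells it read 3.94, 4.42, 5.31 and 4.89 in the crypt and 3.59, 6.81, 4.00 and 4.11 in the villus. Crypt EC and villus EC had almost the same mean, 4.64 ± 0.589 and 4.63 ± 1.47 (SD, n = 4), and Avil had the highest mean FPKM of the 7 genes in crypt EC. The villus epi libraries lay both above and below the EC libraries, with library 1 above them and libraries 2, 3 and 4 below, for a mean of 3.57 ± 3.82, and the crypt epi mean was 7.76 ± 3.05.

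The first comparison asks how EC cells of the crypt differ from the other crypt epithelial cells. Of the 7 genes, 4 were called lower in crypt EC cells and 0 higher: Dclk1, Rgs13, Sh2d6 and Pou2f3. Their mean levels in EC cells were 8.47%, 1.58%, 2.37% and 8.53% of those in crypt epi. A gene was called where limma, fitted to log2(FPKM + 1) over all 16 libraries and all genes that reached 1 FPKM in at least 4 of them, gave a two-sided Benjamini-Hochberg adjusted p under 0.05. All 7 genes passed that filter, Pou2f3 through the 4 crypt epi libraries alone, so its presence among the tested genes depends on the group where it is high. Dclk1, Rgs13 and Sh2d6 reached 1 FPKM in fewer than 4 EC libraries, so they too passed only with the epi libraries. At this setting 43.2% of the 14089 genes tested were called, 20.0% as lower and 23.2% as higher in EC cells, so a call was common. On the log2(FPKM + 1) scale, which understates the change of low genes, Rgs13 differed by -3.34 (SE 0.57, limma adjusted p = 0.000212), Sh2d6 by -3.08 (SE 0.57, adjusted p = 0.000419), Dclk1 by -2.62 (SE 0.35, adjusted p = 1.67e-05) and Pou2f3 by -1.26 (SE 0.16, adjusted p = 1.11e-05). In each of these 4 every crypt EC library was below every crypt epi library, as for 28.3% of all genes tested.

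Trpm5, Plcg2 and Avil were not called between crypt EC and crypt epi in this fit; with libraries weighted by their estimated variability, Plcg2 (-0.37, limma adjusted p = 0.0362) and Avil (-0.70, adjusted p = 0.0406) were called lower too, for 6 calls. Trpm5 differed by -0.30 on the log2(FPKM + 1) scale (95% interval -0.93 to 0.33, limma adjusted p = 0.449). The difference was -0.34 for Plcg2 (95% interval -0.78 to 0.10, adjusted p = 0.213) and -0.57 for Avil (95% interval -1.47 to 0.34, adjusted p = 0.309). Mean EC levels were 75.9%, 75.7% and 59.8% of the crypt epi level. For comparison, the median Paneth cell marker had 3.81% of its crypt epi level in crypt EC, the median goblet marker 2.57% and the median enterocyte marker 7.50%. The median stem and cycling marker had 60.7%. The median difference of the 7 tuft genes was -1.26, beside 0.05 over all genes tested. Scaling the columns to a common total moved the all-gene median by 0.46 and turned the signs of Trpm5 and Plcg2 to 0.13 and 0.12; it called 6119 genes higher and 1432 lower, against 3264 and 2824 as deposited. The 4 calls held under that scaling.

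**Figure D2:**
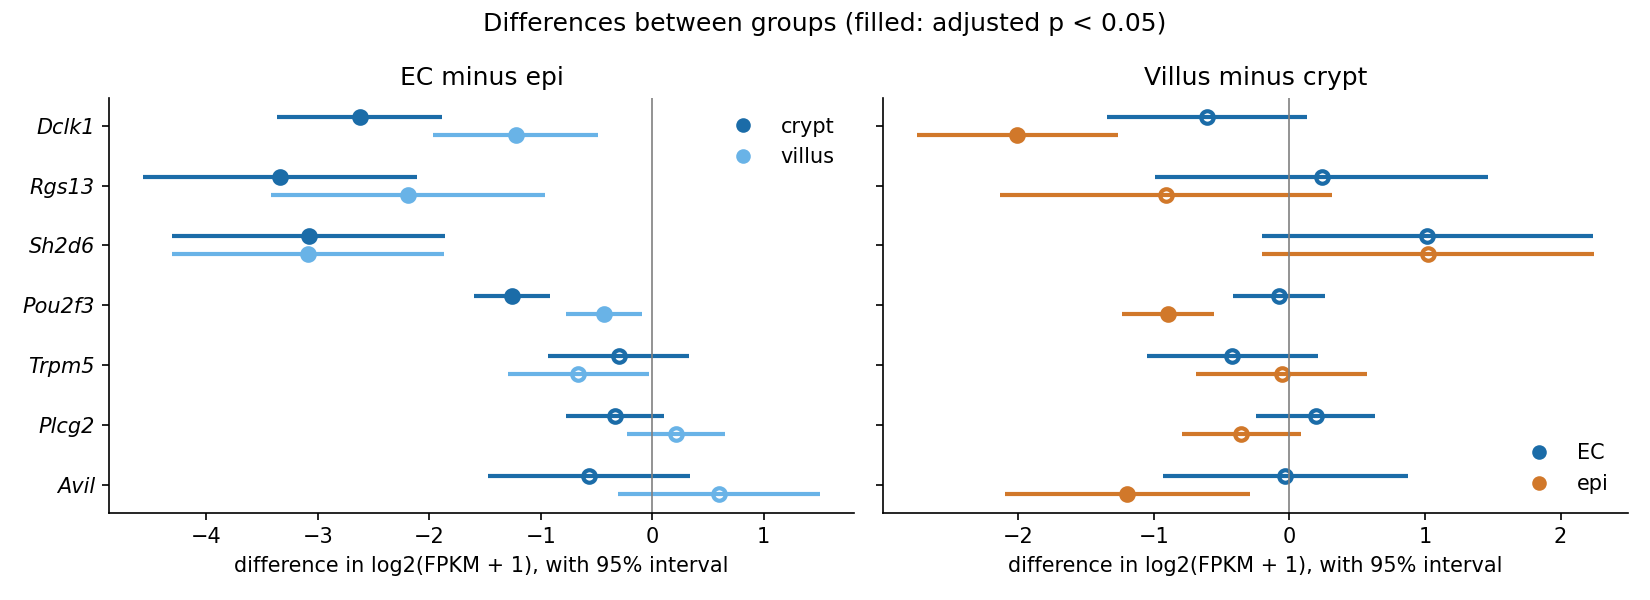
Difference of each tuft cell gene on the log2(FPKM + 1) scale between EC and other epithelial cells in crypt and villus (left) and between villus and crypt in EC and epi cells (right), with its 95% interval; filled symbols are called at an adjusted p under 0.05. In crypt and villus alike Dclk1, Rgs13, Sh2d6 and Pou2f3 lie below 0 in EC cells, and no gene is called between villus EC and crypt EC.

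The same comparison in the villus gave the same 4 genes. Sh2d6, Rgs13, Dclk1 and Pou2f3 were called lower in EC cells, and 0 of 7 were called higher, where 62.2% of all genes tested were called, 21.6% as lower and 40.6% as higher in EC cells. Sh2d6 differed by -3.09 (limma adjusted p = 0.000228), Rgs13 by -2.19 (adjusted p = 0.00374), Dclk1 by -1.22 (adjusted p = 0.0062) and Pou2f3 by -0.44 (adjusted p = 0.0268). Mean villus EC levels were 8.11%, 6.27%, 12.0% and 19.7% of the villus epi level. For Sh2d6 and Dclk1 every EC library was below every villus epi library, as for 17.8% of genes tested, while Rgs13 and Pou2f3 overlapped through villus EC library 2. The call of Pou2f3 was lost in 6 alternative settings, 3 of which leave out a library (villus EC 1, villus EC 3 or villus epi 1), with adjusted p up to 0.0948.

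Trpm5 differed by -0.66 between villus EC and villus epi (95% interval -1.30 to -0.03, limma adjusted p = 0.0636) and was not called. Without villus epi library 2 its difference was -0.74 (adjusted p = 0.0408), and without library 4 it was -0.88 (adjusted p = 0.0186). Median-ratio scaling also gave a call, at -0.88 (adjusted p = 0.0234). Plcg2 differed by 0.21 (95% interval -0.23 to 0.65, adjusted p = 0.391). Avil differed by 0.60 (95% interval -0.30 to 1.50, limma adjusted p = 0.235) and was not called. Without villus epi library 1 the Avil difference was called, at 1.09 (limma adjusted p = 0.00773). With library weights it was 1.00 (adjusted p = 0.024). Mean EC levels of Trpm5, Plcg2 and Avil were 48.2%, 118% and 129% of the villus epi level. The median was 0.722% for enterocyte markers, 30.4% for goblet, 49.5% for Paneth and 63.4% for stem and cycling markers. The median of the 7 genes was -0.66, beside 0.33 over all genes tested. Scaling to a common total moved the all-gene median by 0.47 and gave calls of higher levels in EC cells for Plcg2 (0.73, adjusted p = 0.00377) and Avil (1.05, adjusted p = 0.0259), with 7961 genes called higher and 1902 lower, against 5724 and 3046 as deposited.

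Within EC cells, none of the 7 genes was called between villus and crypt by limma, where 26.5% of all genes tested were called (10.3% higher, 16.2% lower), and 0 had an unadjusted p under 0.05. Sh2d6 averaged 2.11 FPKM in villus EC and 0.236 in crypt EC, a difference of 1.02 (adjusted p = 0.231), with villus EC libraries 1 and 4 near or within the crypt range. Dclk1 differed by -0.61 (adjusted p = 0.237) although each villus EC library was below each crypt EC library, as for 26.2% of genes tested; in a fit of these 2 groups alone it was called (adjusted p = 0.0135). The remaining differences were -0.42 for Trpm5, 0.24 for Rgs13, 0.19 for Plcg2, -0.08 for Pou2f3 and -0.03 for Avil, with adjusted p from 0.359 to 0.975. Weighting the libraries by their estimated variability gave 1 call, for Sh2d6, at 1.26 (adjusted p = 0.012). Over all genes 1454 were called higher and 2282 lower in villus EC, and 1143 and 3502 after scaling to a common total, which moved the all-gene median by -0.18.

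Within CFP-negative cells, 3 of the 7 genes were called lower in the villus than in the crypt and 0 higher, with 55.0% of all genes tested called, 35.4% as lower and 19.6% as higher. Dclk1 differed by -2.01 (limma adjusted p = 0.000142) and Pou2f3 by -0.90 (adjusted p = 0.000183), each with every villus epi library below every crypt epi library, as for 31.7% of genes. Because Pou2f3 passed the filter through crypt epi alone, the filter favours a lower villus value for it. Avil differed by -1.20 (adjusted p = 0.0259), but its groups overlapped and the call was lost in 6 alternatives, 4 of them the fits without crypt epi library 1 or 2 or without villus epi library 3 or 4, where the adjusted p ran from 0.0534 to 0.0906. Rgs13 differed by -0.91 (adjusted p = 0.196); without villus epi library 2 the difference was -1.41 (adjusted p = 0.0237), and with library weights it was -1.97 (adjusted p = 0.000473). Sh2d6 differed by 1.02 (adjusted p = 0.146), Plcg2 by -0.35 (adjusted p = 0.161) and Trpm5 by -0.06 (adjusted p = 0.884). Scaled to a common total, Plcg2 differed by -0.59 and was called (adjusted p = 0.0188). Dclk1 and Sh2d6, at means of 11.7 and 9.97 FPKM in crypt epi, thus had means of 2.39 and 26.0 in villus epi. Over all genes 2761 were called higher and 4994 lower in villus epi, and 1976 and 5978 after scaling to a common total, which moved the all-gene median by -0.19.

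The difference between the 2 EC contrasts was tested as an interaction of cell type and site. Dclk1 and Pou2f3 were called, with 42.9% of all genes tested called, 26.9% as higher and 16.0% as lower. The EC deficit was smaller in the villus than in the crypt by 1.40 for Dclk1 (limma adjusted p = 0.0312) and by 0.82 for Pou2f3 (adjusted p = 0.00823). Pou2f3 passed the filter through crypt epi alone, which favours an interaction of this sign. Both calls were lost with a pseudocount of 0.1, at 1.05 (adjusted p = 0.277) and 1.17 (adjusted p = 0.172), and the Dclk1 call was lost in 8 of the 16 fits that leave out a library, at adjusted p from 0.0543 to 0.0681. Those 8 libraries were crypt EC 2 and 4, crypt epi 1 and 2, villus EC 2 and 4, and villus epi 3 and 4. The interaction was 1.17 for Avil (adjusted p = 0.133), 1.15 for Rgs13 (adjusted p = 0.277), 0.55 for Plcg2, -0.36 for Trpm5 and 0.00 for Sh2d6, none of them called. Without villus epi library 1 the Avil interaction was 1.66 (adjusted p = 0.0063). With library weights Rgs13 (2.24, adjusted p = 0.00186), Avil (1.69, adjusted p = 0.00499) and Plcg2 (0.59, adjusted p = 0.0442) were called as well.

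The crypt and villus contrasts share no library, whereas the comparisons within EC or within CFP-negative cells share libraries with both. Leaving out crypt epi library 3 and villus epi library 2 together, an alternative chosen after the data were seen, left 3 calls in the crypt contrast, since Pou2f3 no longer passed the filter, and 4 in the villus contrast, where Trpm5 was called (-0.74, limma adjusted p = 0.0365) in addition to Dclk1, Rgs13 and Sh2d6. Dclk1, Rgs13 and Sh2d6 kept their direction and their call in the crypt and the villus contrast in all 28 alternatives. Pou2f3 did so in the crypt wherever it was tested.

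Other genes known from tuft cells were taken from 7 lists by role, 79 symbols of which 74 had a row and 62 were tested. In the crypt contrast 24 were called lower and 12 higher in EC cells, with a median of -0.35, and in the villus contrast 25 were called lower and 19 higher, with a median of -0.25, beside all-gene medians of 0.05 and 0.33. Over all genes tested, 20.0% were called lower and 23.2% higher in the crypt contrast, and 21.6% lower and 40.6% higher in the villus contrast; the counts of each list below stand against these shares. Genes under 1 FPKM in every EC library were tested only if enough epi libraries reached it. The filter therefore favoured lower calls for such genes. Each tested gene is drawn by role in the plot of the role lists.

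**Figure D3:**
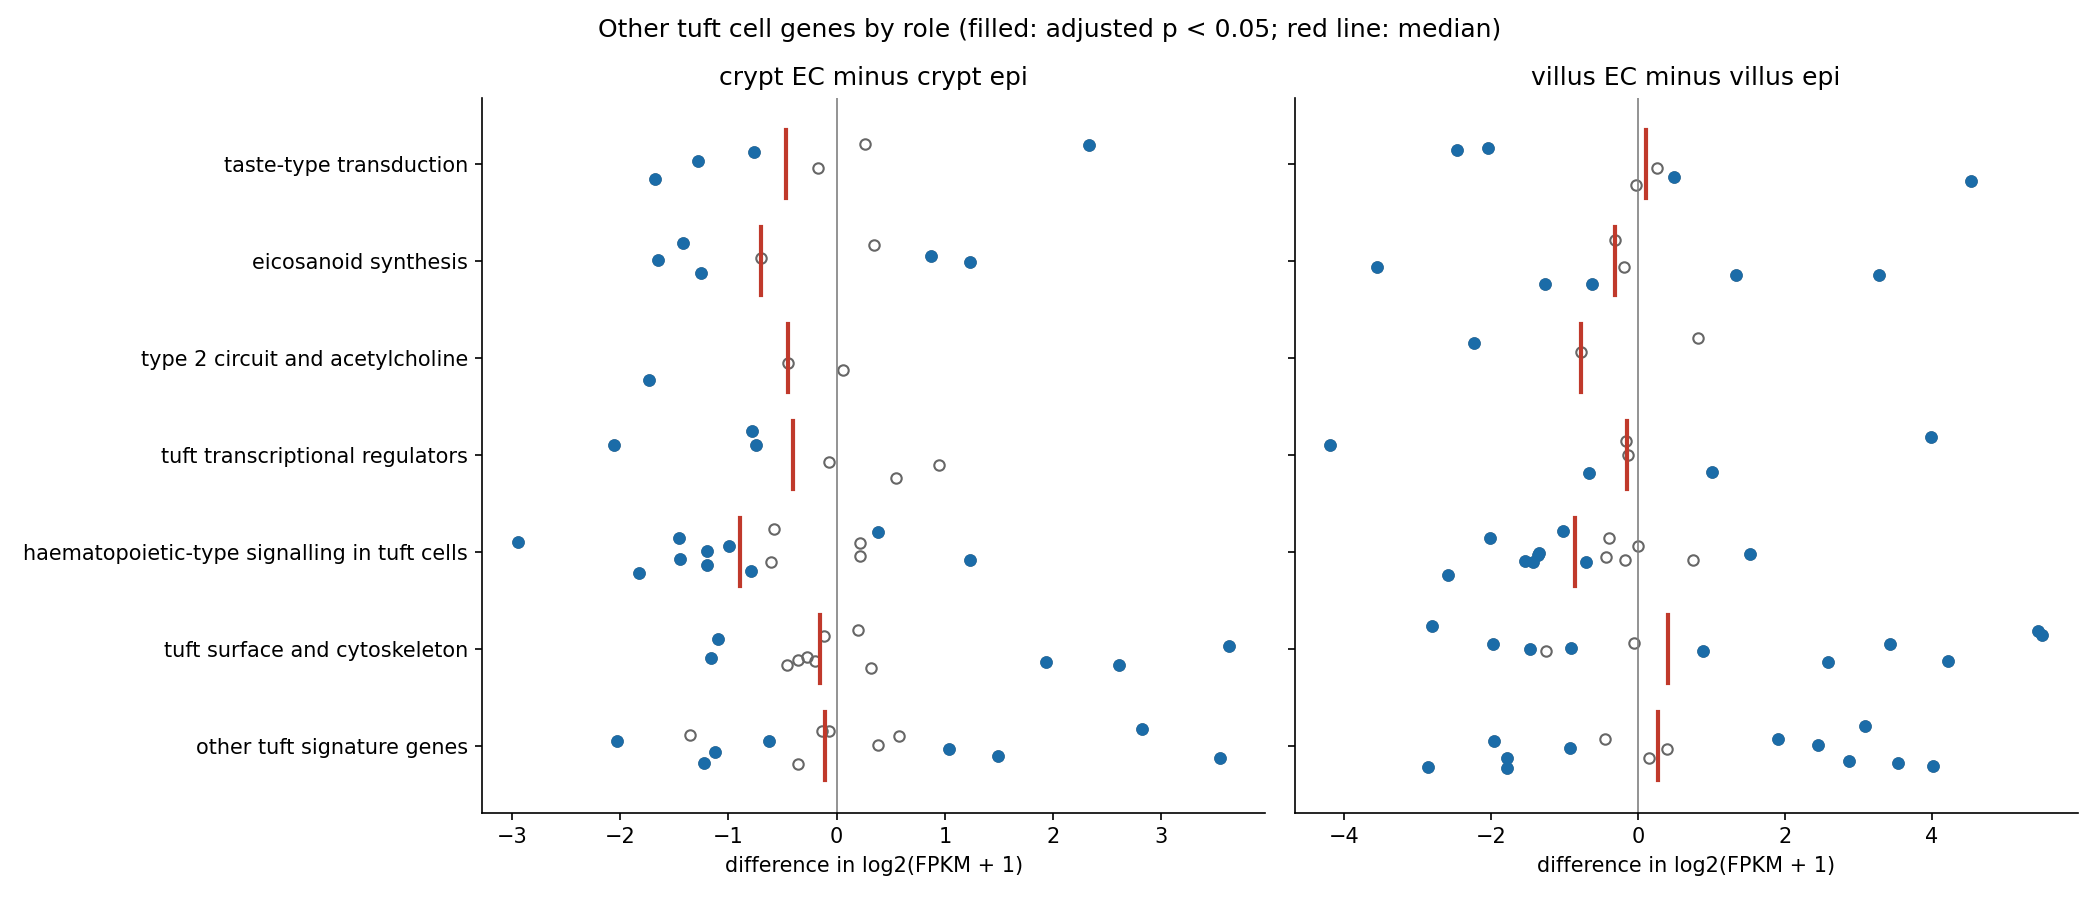
Difference between EC and other epithelial cells on the log2(FPKM + 1) scale for each tested gene of the tuft role lists, in crypt and villus; filled circles are called and the red line marks each list's median. Haematopoietic-type signalling genes have the lowest medians, -0.89 in the crypt and -0.86 in the villus, while the surface and cytoskeleton genes spread to both sides.

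Among taste-type transduction genes, 3 of 6 tested were called lower in crypt EC cells and 1 higher, beside 20.0% and 23.2% of all genes; in the villus the counts were 2 and 2, beside 21.6% and 40.6%. Gng13, the gamma subunit that pairs with gustducin, averaged 0.0195 ± 0.0390 FPKM in crypt EC and 2.43 ± 1.18 in crypt epi (SD, n = 4; log2 difference -1.67, limma adjusted p = 0.00331). Trpm4, a channel related to TRPM5, differed by -1.28 and Ffar3, a receptor for short-chain fatty acids, by -0.76. Itpr3, the calcium release channel of taste cells, went the other way, at 73.5 ± 17.1 FPKM in crypt EC and 13.5 ± 1.68 in crypt epi (2.33, adjusted p = 0.000325). In the villus Itpr3 stood at 129 against 5.81 FPKM (4.54, adjusted p = 1.52e-07) and the sweet and umami receptor subunit Tas1r3 at 1.54 against 0.866 (0.48, adjusted p = 0.045), while Itpr2, a second calcium release channel, stood at 4.78 against 35.1 (-2.46, adjusted p = 2.68e-05) and Trpm4 at 27.3 against 128 (-2.04, adjusted p = 8.34e-06), each with every EC library below every villus epi library. Gng13 was not called there (-0.03). Plcb2, the taste phospholipase, averaged 0.612 ± 0.587 FPKM (SD, n = 4) in crypt epi and at most 0.243 elsewhere. Its crypt epi mean leans on library 2, at 1.48, with the other crypt epi libraries at 0.251 to 0.435. Sucnr1, the succinate receptor of tuft cells, was listed at 0 in all 8 crypt libraries and averaged 0.759 ± 0.616 (SD, n = 4) in villus epi. Both were below the filter and untested.

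Eicosanoid genes held the enzymes with which tuft cells make leukotrienes and prostaglandins. In the crypt contrast 3 of 7 were called lower, Alox5 (0.289 against 3.07 FPKM, -1.65), Ptgs1 (0.164 against 2.13, -1.42) and Ltc4s (3.84 against 10.5, -1.25), at limma adjusted p of 0.00289, 5.54e-05 and 0.00101. Hpgds, a prostaglandin D synthase, was called higher in crypt EC cells, at 18.1 ± 2.18 against 7.13 ± 0.912 FPKM (SD, n = 4; 1.23), as was the inducible cyclooxygenase Ptgs2 (0.87). In the villus the same 5 genes were called in the same directions, led by Ltc4s, the leukotriene C synthase, at 3.34 against 48.8 FPKM (-3.56) and Ptgs2 at 10.6 against 0.173 FPKM (3.29). Alox5ap, the partner of Alox5, was not called at either site (0.35 and -0.19). Alox5 and Ptgs1 stayed under 1 FPKM in every EC library and so passed the filter through epi libraries alone, which favours lower calls.

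Of the type 2 circuit and acetylcholine genes, Il25 had no row and Chat, the acetylcholine synthase, averaged at most 0.194 FPKM in any group. Il17rb, a receptor chain for interleukin 25, was at 1.67 ± 0.923 FPKM in crypt EC and 2.55 ± 0.636 in crypt epi (SD, n = 4) and was not called at either site (-0.45 and -0.77). Il13ra1, a receptor chain for interleukin 13, was called lower in EC cells in the crypt (-1.73) and in the villus (-2.24), where it averaged 34.7 against 169 FPKM. That gene was at 66.4 FPKM in crypt epi, far above the tuft members there.

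Transcriptional regulators included the POU2F3 coactivators. Of 6 tested, 3 were called lower in EC cells in the crypt, and 2 lower (Pou2af2 and Sox9, -0.66) and 2 higher (Sox4, 3.99, and Nfatc1, 1.01) in the villus. Pou2af2 averaged 5.88 ± 2.92 FPKM in crypt epi and 23.6 ± 9.66 in villus epi, but 0.561 ± 0.606 in crypt EC and 0.307 ± 0.330 in villus EC (SD, n = 4). It was called lower in EC cells in the crypt (-2.05, limma adjusted p = 0.000513) and in the villus (-4.19, adjusted p = 1.64e-07), and called higher in villus than in crypt epi (1.92, adjusted p = 0.000617), the opposite direction to Pou2f3 in the same cells. Pou2af3 (-0.78) and the Ets factor Spib (-0.74) were called lower in crypt EC cells alone of the 2 EC contrasts; at the villus the differences were -0.14 and -0.17, and the change between sites was not called for either. Spib stayed under 1 FPKM in every EC library and so passed the filter through epi libraries alone. Gfi1b, a zinc-finger repressor found in tuft cells, averaged 0.730 FPKM in crypt epi and 0.0110 in crypt EC and was below the filter.

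The list of haematopoietic-type signalling genes, which tuft cells share with leukocytes, had 8 of 14 called lower in EC cells at each site, with 2 called higher in the crypt and 1 in the villus. The shares of all genes called lower were 20.0% and 21.6%. Bmx, Sh2d7, Fyb, Inpp5d and Pik3cg stayed under 1 FPKM in every EC library and so passed the filter through epi libraries alone. Bmx, a Tec-family kinase, averaged 0.0259 against 2.66 FPKM in the crypt (-1.82) and 0.0514 against 1.85 in the villus (-1.34), and the adaptor Sh2d7 0.0542 against 1.98 (-1.46) and 0.0409 against 2.06 (-1.37). Irag2 differed by -1.45 and -2.02. Matk (1.23) and Skap2 (0.39), named after their values were seen, were called higher in crypt EC cells, and Vav1 (1.52) in villus EC cells. EC cells also had a lower summed level of 6 myeloid markers. It was 26.4 to 31.9 FPKM in crypt epi and 36.2 to 74.3 in villus epi, against 4.78 to 25.6 in crypt EC and 5.54 to 25.3 in villus EC. No marker was at 0 in all 4 libraries of a group. The 74.3 was villus epi library 2, with the other villus epi libraries at 36.2 to 40.4. By group means most of that sum was Lyz2, at 20.5 FPKM in crypt epi, 37.1 in villus epi, 12.1 in crypt EC and 10.7 in villus EC. Lyz2 split both EC groups, however. It read 22.0, 22.2, 1.84 and 2.39 in crypt EC and 20.7, 17.8, 2.22 and 2.13 in villus EC, beside 19.7 to 22.0 in crypt epi. The summed level of 8 T and intraepithelial lymphocyte markers overlapped between EC and epi cells, at 2.44 to 3.12 FPKM in crypt EC, 2.35 to 3.18 in crypt epi, 2.63 to 3.82 in villus EC and 2.34 to 8.34 in villus epi. That of 5 B and plasma cell markers was above crypt epi (2.02 to 2.70) in crypt EC (2.96 to 3.62). In the villus it was 3.34 to 4.12 in EC and overlapped through villus epi library 2 alone (6.33). Villus epi libraries 1, 3 and 4 were below every villus EC library, at 1.40, 0.900 and 1.11. The part of leukocytes in these differences, and in those of Rgs13 and Plcg2, which leukocytes also express, was not tested.

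Of 12 surface and cytoskeleton genes tested, 3 were called higher and 2 lower in EC cells in the crypt, and 6 higher and 4 lower in the villus. Of 14 remaining signature genes the counts were 4 and 4 in the crypt and 6 and 5 in the villus. In the crypt these counts are near the shares of all genes, 23.2% higher and 20.0% lower. Siglecf (-1.09 and -1.48) and the actin-binding Svil (-1.16 and -2.81) were called lower in EC cells at both sites, with Cd300lf called lower in the villus (-0.91) and not called in the crypt (-0.35); Siglecf and Cd300lf, which encode myeloid-type receptors found on tuft cells, were named after their values were seen. Siglecf stayed under 1 FPKM in every EC library and so passed the filter through epi libraries alone. The tubulin gene Tuba1a was at 185 against 14.1 FPKM in the crypt (3.63) and 587 against 12.0 in the villus (5.50). Cd24a, a surface antigen, was at 615 against 14.8 FPKM in the villus (5.44) and was not called in the crypt (-0.20). Kctd12 (1.93 and 4.22) and Nebl (2.61 and 0.88) were also called higher at both sites. Of the other signature genes, St18, a zinc-finger factor, was called higher in EC cells at both sites (3.54 and 2.88), as was Ly6g6d (2.82 and 1.91), and Ethe1, a mitochondrial sulfur dioxygenase, was called lower at both (-2.02 and -1.96).

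Genes whose pattern was most like the members were ranked by the Pearson correlation, over the 16 libraries and as a description, with the mean of the standardised log2 values of the 7 genes. The 10 highest were Pik3cg (r = 0.96), Tspan6 (0.93), Ptgs1 (0.92), Alox5 (0.90), Bmx (0.89), Cacna2d2 (0.87), Myof (0.87), Fhl1 (0.87), Naip1 (0.86) and Gorasp2 (0.86). After each group's mean was subtracted, which leaves the variation between libraries of a group, the correlation stayed at 0.89 for Pik3cg and Tspan6, 0.81 for Bmx, 0.80 for Ptgs1 and 0.79 for Alox5. It was 0.56 to 0.74 for the other 5. Pik3cg, the catalytic subunit of a phosphoinositide kinase of leukocytes, averaged 1.24 FPKM in crypt epi, 0.548 in villus epi, 0.115 in crypt EC and 0.0724 in villus EC, and Fhl1, a LIM-domain gene, 18.2, 9.97, 1.07 and 0.935 in the same order. Libraries share depth and cell makeup, so these values say only that the levels rose and fell together.

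Each member was also set against the mean of the other 6. Dclk1 had r = 0.88, Pou2f3 0.87, Rgs13 0.83, Trpm5 0.68, Sh2d6 and Avil 0.55 and Plcg2 0.40 over the 16 libraries. Within groups the order changed, with Avil at 0.92, Dclk1 0.77, Trpm5 0.75, Pou2f3 0.70, Rgs13 0.62, Sh2d6 0.49 and Plcg2 0.38. Among single pairs, Dclk1 and Pou2f3 had r = 0.96 (0.75 within groups) and Rgs13 and Sh2d6 r = 0.86 (0.78 within groups). Avil, which was not called between EC and other cells, thus varied between libraries of a group with Dclk1 (0.84 within groups) and Trpm5 (0.81 within groups).

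**Figure D4:**
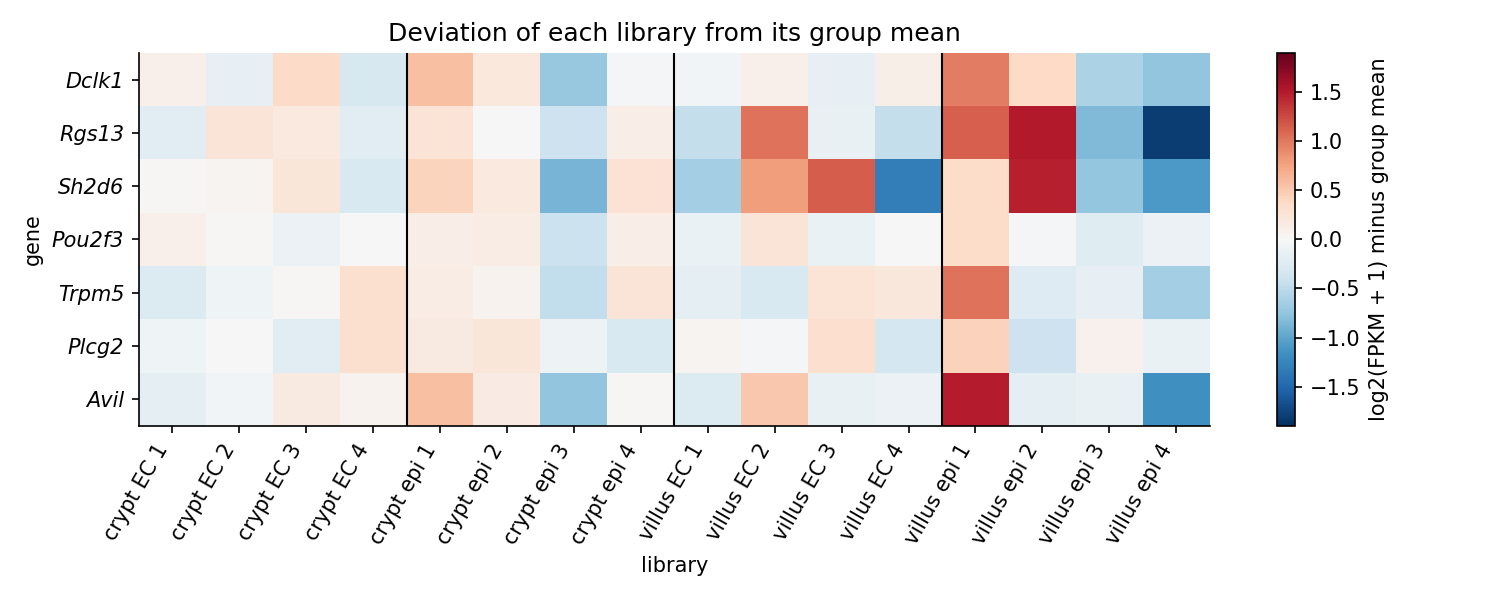
Deviation of each tuft cell gene from its group mean on the log2(FPKM + 1) scale in each library. Red is above and blue below the group mean. Crypt epi library 3 is the lowest of its group in 6 of 7 genes, and villus epi library 1 is the highest of its group in 5 and library 4 the lowest in 5.

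The plot of deviations shows which libraries carry this shared variation. Crypt epi library 3, the library low in enterocyte markers, was the lowest of its group for 6 of the 7 genes, all but Plcg2. Villus epi library 1 was the highest of its group for Dclk1, Trpm5, Pou2f3, Plcg2 and Avil, library 2 for Rgs13 and Sh2d6, and library 4 the lowest for 5 genes, Dclk1, Rgs13, Trpm5, Sh2d6 and Avil. In villus EC, library 2 was the highest for Rgs13, Pou2f3 and Avil and also had the highest summed enterocyte marker level of its group, 1807 FPKM of a range from 1144. Summed over the 7 genes, the level ran from 12.1 to 15.5 FPKM in crypt EC and 11.1 to 19.2 in villus EC. In crypt epi the sum ran from 32.0 to 67.7, and in villus epi from 17.5 to 86.3. The sum thus spanned more FPKM in the groups of CFP-negative cells, where its mean was also higher. On the log2 scale of the plot, Rgs13, Sh2d6 and Plcg2 spanned more in villus EC than in crypt epi. Dclk1, Trpm5, Pou2f3 and Avil spanned less.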

How the data were processed

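RNA was measured in 16 libraries of 5000 sorted cells each, 4 per group. The deposited table holds FPKM, 1 column per library, made by the authors with bcl2fastq 2.20, kallisto, sleuth and mm10, per the submitters' processing notes; how FPKM was scaled is not given in the sources used here. No read counts were used, so depth is known only relatively. Columns were matched to samples by name, and 0 other value columns were present. Values were tested as log2(FPKM + 1) with limma 3.58.1 in R 4.3.3 (4 group means, 16 libraries, moderated variances with trend, two-sided, Benjamini-Hochberg over 14089 genes with at least 1 FPKM in at least 4 libraries; 5983 genes left out). The fit was tested on simulated data. The 5 contrasts were each repeated under 28 alternative settings, 16 of which leave out a library. An exact test of 4 against 4 libraries could not go below 0.0286 and was not used. The labels count mice or samples alike, so p-values measure the spread between libraries, which may be partly technical.

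The 8 tuft genes and the other lists were chosen with earlier results of these data known. All 8 were named whatever their values; of each other tuft list, up to 4 called genes with the largest differences per contrast, 15 further genes whatever their values, and the 10 genes most like the members were eligible. Not all eligible genes are reported here. Figures were drawn with matplotlib 3.10.9 and tables with pandas 2.3.3 in Python 3.11.15.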

Additional observations from a re-analysis of the deposited data

Results flagged for a closer look

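In 3 of 28 combinations of gene and group, 1 library lay far from the other 3 (its gap to the nearest, divided by the range of the group, was above Dixon's 95% critical value); chance gives about 1 such library in 20 groups. Rgs13 in villus EC library 2 read 1.81 FPKM, with the next library at 0.242 (gap over range 0.866). Avil in the same library read 6.81 FPKM, with the next at 4.11 (0.839). Pou2f3 in crypt epi library 3 read 1.08 FPKM, with the next at 2.00 (0.952). The interaction term of the limma fit on log2(FPKM + 1) was called for Dclk1 (1.40) and for Pou2f3 (0.82). Both calls were lost with a pseudocount of 0.1 (limma adjusted p = 0.277 and 0.172), and the Dclk1 call was lost in 9 of 27 alternatives. As a percent of epi, mean EC levels of Dclk1 were 8.47% in the crypt and 12.0% in the villus, and those of Pou2f3 8.53% and 19.7%.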

How the results depend on the processing

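The 4 calls in the crypt contrast held at every setting at which the gene was tested (3 to 4 calls with each library left out; Pou2f3 falls below the filter without a crypt epi library), and the villus contrast had 3 to 5 genes called lower. Called higher in the villus contrast (0 in the main analysis) were 2 genes after scaling to a common total, 1 with library weights and 0 to 1 with a library left out. The interaction called 2 genes: 0 with a pseudocount of 0.1, 1 with a filter on the mean, 5 with library weights, 1 without crypt epi 3 and villus epi 2, and 0 to 3 with a library left out. Between villus and crypt, 1 gene was called lower in EC cells with those groups alone, 1 higher with library weights, and 1 to 4 lower in epi cells with a library left out. Signs of uncalled differences turned for the Sh2d6 interaction (0.75 with a pseudocount of 0.1, 0.30 scaled to a common total, 1.12 with weights, 0.78 without the pair of libraries, -0.39 to 0.49 with a library left out), for Trpm5 (0.13) and Plcg2 (0.12) in the crypt contrast scaled to a common total, and with median-ratio scaling for Plcg2 in the villus contrast (-0.025), Avil between EC sites (0.026) and Trpm5 between epi sites (0.094). With a library left out, Avil between EC sites ran from -0.20 to 0.057, Rgs13 there from -0.11 to 0.39 and Trpm5 between epi sites from -0.40 to 0.16. A fit of only the groups of a contrast gives no interaction. Median-ratio scaling moved the all-gene median by -0.14 in the crypt contrast, -0.22 in the villus contrast and 0.13 between epi sites. Where no cause is given, the cause was not tested.

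Same-numbered libraries did not deviate together (median correlation -0.035 over 24 pairs for title numbers, -0.097 over 10 for library numbers; 3 and 0 of 16 libraries correlated best with their own number). Fits with a replicate block changed no count of calls among the 7 genes; with library numbers as the block the Sh2d6 interaction was 0.024. Depth limits what can be said of genes listed at 0 in villus epi, where 1 read was estimated to be worth most.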
